A study of Mus musculus with 2 samples.

Results

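The collagen genes of the mouse were described in the liver of B6NCrl embryos at embryonic day 15.5. The members were the protein-coding genes of GENCODE M21 (GRCm38) whose symbol has the form Col, a type number, a and a chain number, and 44 of the 43346 genes in both gene tables met that rule. Total RNA longer than 200 nt was sequenced in 2 libraries, each from 10 ng of RNA. Replicate 2 pooled livers of 62 healthy embryos of both sexes, and replicate 1 pooled livers of 78 such embryos, per the labels. There was 1 group, with no treatment, mutant or control, so collagen genes and classes were compared with each other, and replicate 2 with replicate 1. Both libraries are whole organs from pooled litters, so no value belongs to 1 embryo or 1 cell type.

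Collagens are extracellular proteins built from 3 chains that wind into a triple helix, which needs glycine at the first place of every triplet (Gly-X-Y). Fibrillar collagens form the rope-like fibrils of connective tissue, type IV forms the sheet of basement membranes, type VI forms beaded filaments, and the FACIT collagens sit on the surface of fibrils. In liver, stellate cells, portal fibroblasts and endothelial cells are the known makers of fibrillar and basement membrane collagen. Type XVIII, a multiplexin whose C-terminal fragment is endostatin, is a basement membrane collagen that hepatocytes are also known to make.

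The repeat that defines the family can be read in the coding exons of the annotated transcripts. The exons below belong to members that lead their class or form 1 trimer. In the fibrillar genes the first exon of 54 bases inside the longest run of triplets was taken, and in Col6a1 the first of 63 bases. In Col4a1 the first short exon with a break between triplets was taken. In every exon the capitals mark each glycine codon that opens a triplet. Each is printed as the coding strand on GRCm38, taken from the GENCODE M21 transcripts. They are coding exon 6 of Col3a1-201 (chr1:45325360-45325413, plus strand), exon 8 of Col1a1-201 (chr11:94939904-94939957, plus), exon 8 of Col1a2-201 (chr6:4515481-4515534, plus), exon 15 of Col6a1-201 (chr10:76717795-76717857, minus) and exon 2 of Col4a1-201 (chr8:11267597-11267656, minus).
Col3a1: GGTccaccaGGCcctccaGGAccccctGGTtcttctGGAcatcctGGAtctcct
Col1a1: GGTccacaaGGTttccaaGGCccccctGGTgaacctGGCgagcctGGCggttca
Col1a2: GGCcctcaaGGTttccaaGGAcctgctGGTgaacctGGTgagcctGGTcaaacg
Col6a1: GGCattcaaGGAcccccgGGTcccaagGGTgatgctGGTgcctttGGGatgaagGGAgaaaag
Col4a1: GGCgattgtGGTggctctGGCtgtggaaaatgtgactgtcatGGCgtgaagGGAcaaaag

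The 3 fibrillar exons have 54 bases each and hold 6 unbroken triplets. The Col6a1 exon has 63 bases and 7 triplets, and the Col4a1 exon has 60 bases with a break before its last 2 marked codons. Since the exons were picked by length or for a break, the classes were compared on the coding sequence of every member. The longest uninterrupted run of triplets was 216 to 344 in the 11 fibrillar genes (median 338), which had 2 to 5 separate runs. In the 6 type IV genes the longest run was 39 to 66 triplets, and the coding sequence held 23 to 27 separate runs. The 9 FACIT genes reached 32 to 113 triplets, the 7 genes of type VI and related types 28 to 87, and both multiplexins 30. Proline codons filled 35.5% of the X and 35.2% of the Y places in Col1a1, 28.9% and 42.7% in Col3a1, and 18.5% and 47.4% in Col4a1. Over all members 23.4% of 2004 coding exons had 54 bases, against 0.444% of 197012 coding exons in other protein-coding genes. A length that is a multiple of 9 was found in 61.8% of the members' exons and 14.0% of the others.

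**Figure D1:**
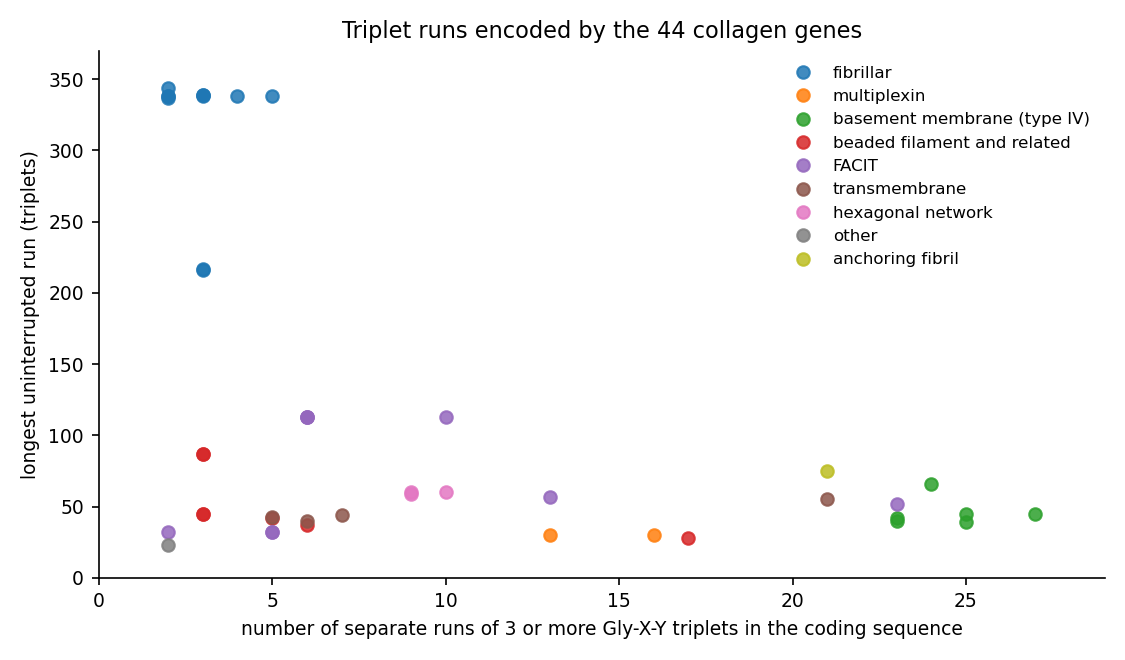
Each point is 1 of the 44 collagen genes, coloured by class, with the number of separate Gly-X-Y runs of 3 or more triplets on the x axis and the longest run in triplets on the y axis. The fibrillar genes lie at 216 to 344 triplets with 2 to 5 runs and the type IV genes at 39 to 66 triplets with 23 to 27 runs, and some points coincide.

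Depth was 44200838 expected counts in replicate 2 and 34039426 in replicate 1, spike-ins left out. An expected count is the authors' estimate of reads or fragments per gene, and TPM is a level corrected for transcript length and library total. One count on a transcript of 5000 nt was worth 0.00551 TPM in replicate 2 and 0.00741 TPM in replicate 1. Errors are the SD over the 2 libraries (n = 2), and with 1 library on each side the difference between them has no replicate check and no p-value. Counting intervals are exact 95% intervals that cover counting error alone, since reads amplified by PCR are not independent molecules. As a check of the tissue, the 6 hepatocyte markers summed to 33569 TPM in replicate 2 and 43216 TPM in replicate 1.

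Collagen RNA was a small share of this tissue. The 44 members summed to 379.9 TPM in replicate 2 and 405 TPM in replicate 1, a mean of 0.0392% ± 0.00175 of all TPM (SD, n = 2). By expected counts they took 0.175% in replicate 2 and 0.180% in replicate 1. In bulk tissue, fewer cells of a type and less RNA per cell cannot be told apart. At 1 TPM or more in both libraries 19 members were detected, which is 43.2% of the family, against 53.1% of 21474 protein-coding genes. The median member stood at 0.764 TPM in replicate 2 and 0.735 TPM in replicate 1, below the protein-coding medians of 1.54 TPM and 1.68 TPM in the same libraries. The levels were uneven: 4 genes, Col3a1, Col18a1, Col1a1 and Col1a2, held 74.0% ± 1.24 of the family's TPM (SD, n = 2). Only 7 members reached 10 TPM in both libraries and 11 reached 5 TPM.

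**Figure D2:**
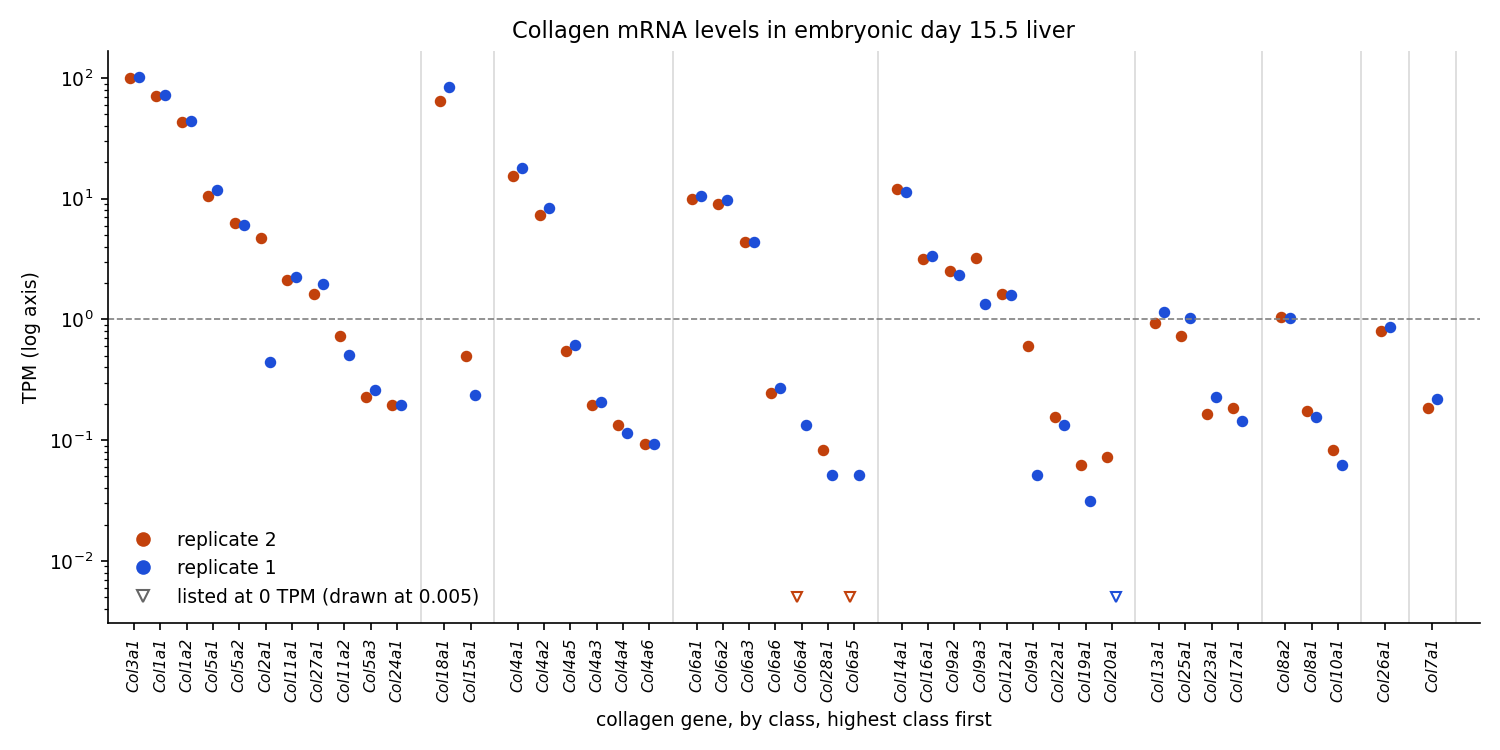
Levels of the 44 collagen genes in TPM (log axis), grouped by class, with replicate 2 in orange left of replicate 1 in blue; the dashed line is 1 TPM and open triangles are values listed at 0. Col3a1, Col18a1, Col1a1 and Col1a2 lie above 40 TPM in both libraries, and Col2a1 and Col9a1 show the widest gaps between libraries among members above 0 in both.

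The fibrillar class led the family, with 240.4 TPM in replicate 2 and 243 TPM in replicate 1. Its share of collagen TPM was 61.6% ± 2.33 (SD, n = 2), and 7 of its 11 members were detected. Col3a1 (ENSMUSG00000026043; chr1:45311538-45349706, plus strand), the single chain of type III collagen, had 100.1 TPM in replicate 2 and 102 TPM in replicate 1. Both chains of type I followed. Col1a1 (ENSMUSG00000001506; chr11:94936224-94953042, plus) had 70.8 TPM in replicate 2 and 72.5 TPM in replicate 1, from 17281 and 12945 counts. Col1a2 (chr6:4504814-4541544, plus) had 43.0 TPM in replicate 2 and 44.1 TPM in replicate 1. These 3 genes differed between libraries by less than 3%.

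Type V chains join type I fibrils and are known to set their width. Col5a1 had 10.6 TPM in replicate 2 and 11.9 TPM in replicate 1, and Col5a2 had 6.29 TPM and 6.09 TPM. Col11a1, a type XI chain best known from cartilage fibrils, had 2.12 TPM in replicate 2 and 2.27 TPM in replicate 1. Col27a1, a fibrillar collagen with a shorter helix and the run of 217 triplets, had 1.63 TPM and 1.98 TPM in the same order. Of the other fibrillar members, Col2a1 passed 1 TPM in replicate 2 alone, Col11a2 had 0.733 TPM in replicate 2 and 0.508 TPM in replicate 1, and Col5a3 and Col24a1 lay between 0.196 and 0.259 TPM in both.

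The multiplexins came second through 1 gene. Col18a1 (ENSMUSG00000001435; chr10:77052178-77166548, minus) had 64.0 TPM in replicate 2 and 84.0 TPM in replicate 1, from 12207 and 11860 counts. It therefore stood below Col1a1 in replicate 2 and above it in replicate 1, so that order does not hold between libraries. The end of Col18a1 overlaps Slc19a1 on the other strand, so reads from that stretch are uncertain. Its sister gene Col15a1 had 0.495 TPM in replicate 2 and 0.238 TPM in replicate 1. The class held 18.9% ± 2.72 of collagen TPM (SD, n = 2).

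The 6 type IV genes, the network of basement membranes, held 6.50% ± 0.401 of collagen TPM (SD, n = 2), and nearly all of it came from the widely used chains Col4a1 and Col4a2. Col4a1 (chr8:11198423-11312826, minus) had 15.3 TPM in replicate 2 and 18.0 TPM in replicate 1. Col4a2 (chr8:11312805-11449287, plus) had 7.31 TPM in replicate 2 and 8.41 TPM in replicate 1. The chains known from kidney glomerulus and other special basement membranes were low in both libraries. Col4a5 had 0.547 TPM in replicate 2 and 0.611 TPM in replicate 1, Col4a3 had 0.196 and 0.207 TPM, Col4a4 had 0.134 and 0.114 TPM, and Col4a6 had 0.0929 and 0.0932 TPM. Fibrillar TPM was 10.2 times type IV TPM in replicate 2 and 8.85 times in replicate 1.

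Type VI and related genes held 6.24% ± 0.0019 (SD, n = 2). Its 3 widespread chains were detected: Col6a1 with 9.96 TPM in replicate 2 and 10.6 TPM in replicate 1, Col6a2 with 9.08 and 9.80 TPM, and Col6a3 with 4.35 and 4.39 TPM. The alternative chains Col6a4, Col6a5 and Col6a6 and the related Col28a1 stayed at or below 0.269 TPM. Col6a4 had 0 counts in replicate 2 (exact 95% Poisson interval up to 3.69) and 23 counts in replicate 1. These 3 alternative chains lie side by side on chromosome 9 and resemble each other, so the split of reads among them is uncertain.

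The FACIT class held 5.56% ± 0.847 (SD, n = 2), led by Col14a1, which binds the surface of type I fibrils. Col14a1 had 12.0 TPM in replicate 2 and 11.3 TPM in replicate 1. Col12a1, of the same kind, had 1.62 TPM and 1.60 TPM, and Col16a1 had 3.15 TPM in replicate 2 and 3.34 TPM in replicate 1. The type IX chains Col9a2 and Col9a3, known from the surface of cartilage fibrils, were also detected, at 2.53 and 3.21 TPM in replicate 2 against 2.32 and 1.34 TPM in replicate 1. Col9a1, Col19a1, Col20a1 and Col22a1 were under 1 TPM in both libraries, and Col20a1 had 12 counts in replicate 2 and 0 in replicate 1.

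The remaining classes added little. Col8a2, a chain of the hexagonal networks under endothelia, was at 1.05 TPM in replicate 2 and 1.04 TPM in replicate 1, just inside the detection limit, while Col8a1 and Col10a1 stayed under 0.18 TPM. The transmembrane collagens Col13a1 and Col25a1 were just outside it, with 0.929 and 0.723 TPM in replicate 2 against 1.16 and 1.03 TPM in replicate 1. Col17a1 and Col23a1, of the same class, lay between 0.145 and 0.228 TPM. Col26a1 had 0.795 TPM in replicate 2 and 0.860 TPM in replicate 1. Col7a1, the anchoring fibril collagen of skin, had 0.186 and 0.218 TPM.

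**Figure D3:**
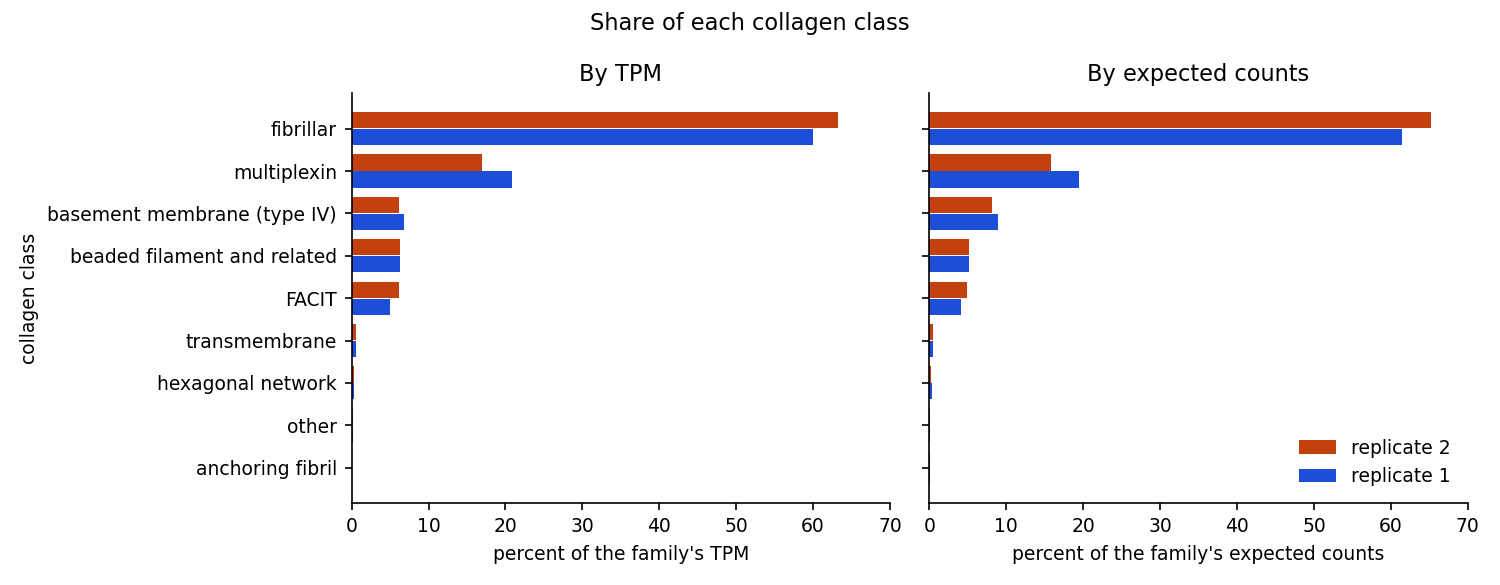
Share of each collagen class in the family's TPM (left) and expected counts (right), in percent, with replicate 2 above replicate 1. The fibrillar bars lie between 60.0% and 65.2%, the multiplexin bars between 15.9% and 20.8%, and type IV is the only other class above 7% on either scale.

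Chains that form 1 trimer were compared as ratios of TPM. Type I is known as 2 Col1a1 chains with 1 Col1a2 chain, and the RNA ratio was 1.65 in replicate 2 and 1.64 in replicate 1. The type IV network of 2 Col4a1 chains with 1 Col4a2 chain had a ratio of 2.10 in replicate 2 and 2.14 in replicate 1. These genes face away from each other with starts that overlap by 22 bases, and whether counting used strand is not given in the sources used here, so reads from the overlap are uncertain. Col5a1 over Col5a2 was 1.68 in replicate 2 and 1.96 in replicate 1. In type VI, which uses its chains equally, Col6a1 over Col6a2 was 1.10 and 1.08, but Col6a3 over Col6a2 was 0.478 in replicate 2 and 0.448 in replicate 1. The ratios of cartilage chains moved most: Col9a2 over Col9a3 was 0.788 in replicate 2 and 1.74 in replicate 1, and Col11a1 over Col11a2 was 2.89 and 4.47. Col8a1 over Col8a2 was 0.167 in replicate 2 and 0.150 in replicate 1. The low pair Col4a3 and Col4a4, 71 bases apart, had a ratio of 1.46 in replicate 2 and 1.82 in replicate 1. Of these ratios, 3 moved by over 1.5 times when short transcripts were left out, on the mean of both libraries: Col6a3 over Col6a2 became 0.194 where it was 0.463, Col11a1 over Col11a2 6.15 where it was 3.68, and Col4a3 over Col4a4 4.15 where it was 1.64.

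Transcripts sharpened the picture of the leading members. In 18 of the 19 detected members the same transcript held most TPM in both libraries, and in 16 the leader was annotated as protein-coding. Col1a1-201 held 99.0% ± 1.06 of Col1a1 TPM, Col1a2-201 97.1% ± 0.239 of Col1a2 and Col4a1-201 99.5% ± 0.667 of Col4a1 (SD, n = 2 each). The order of Col3a1 and Col1a1, however, rested on 1 short transcript. Col3a1-205, a 737 nt form, had 31.0 TPM in replicate 2 and 29.9 TPM in replicate 1, but only 829 and 594 of the gene's 16666 and 12728 counts. With transcripts shorter than 50% of a gene's longest left out, a rule chosen after the values were seen, Col3a1 had 69.0 TPM in replicate 2 and 71.2 TPM in replicate 1. Col1a1 then had 70.6 TPM in replicate 2 and 71.2 TPM in replicate 1, level with Col3a1 within the spread.

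In 9 detected members such short forms held 20% or more of TPM. Col6a3 had 56.9% ± 2.73 of its TPM in Col6a3-206 (SD, n = 2), a retained intron form of 646 nt that took 7.93% of its counts. Col6a3 from long forms alone had 1.73 TPM in replicate 2 and 1.93 TPM in replicate 1. Col12a1 and Col27a1 were led by forms of 1784 nt and 1485 nt, and fell to 0.372 and 0.671 TPM in replicate 2 and to 0.476 and 0.746 TPM in replicate 1 without short forms. Of the 19 members detected, 15 passed 1 TPM in both libraries from long forms alone. Besides Col12a1 and Col27a1, those that did not were Col9a3 and Col8a2. From long forms Col9a3 had 2.31 TPM in replicate 2 and 0.559 TPM in replicate 1, and Col8a2 had 0.815 and 1.04 TPM.

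**Figure D4:**
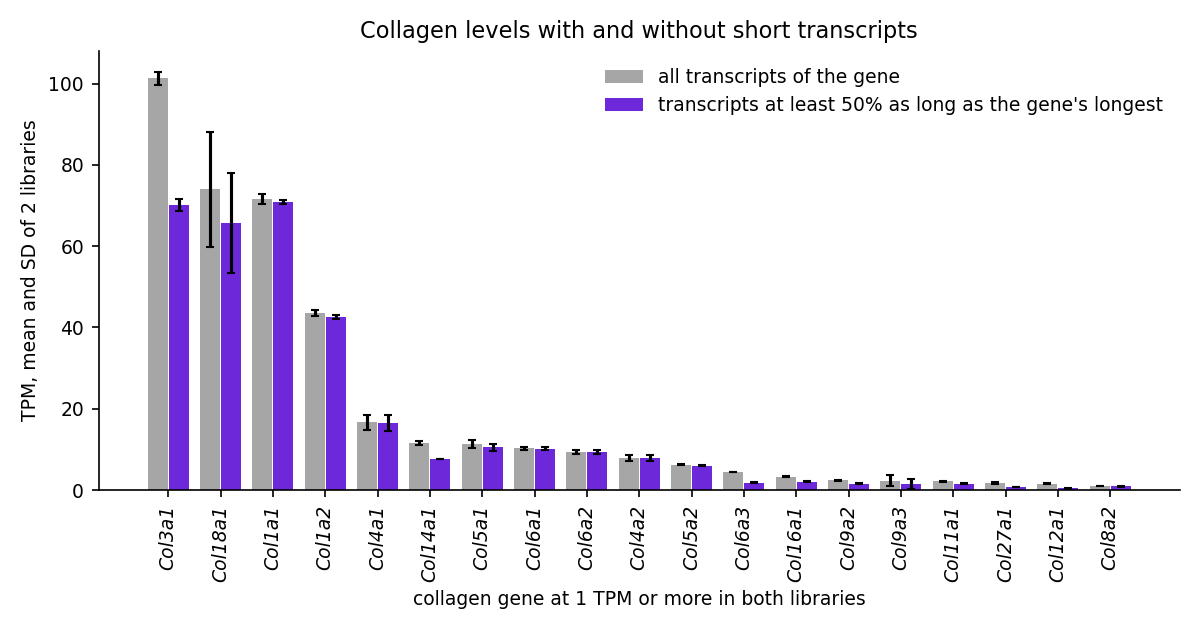
Level of each of the 19 detected collagens in TPM, mean and SD of 2 libraries, from all transcripts (grey) and from transcripts at least 50% as long as the gene's longest (purple). Col3a1 is 101 TPM in the first and 70.1 TPM in the second, while Col1a1 is 71.6 and 70.9 TPM.

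Col18a1 RNA was assigned to transcripts from both of its main annotated starts. Col18a1-202, which begins at the upstream start (chr10 position 77166548, minus strand), had 38.2 TPM in replicate 2 and 50.9 TPM in replicate 1. Col18a1-203, which begins 52843 bases further on at position 77113705, had 18.6 TPM in replicate 2 and 23.5 TPM in replicate 1. The upstream form held 60.2% ± 0.616 and the downstream form 28.5% ± 0.815 of the gene's TPM (SD, n = 2), so the split differed little between libraries although the level did. The upstream form has 3945 coding bases and the downstream form 4581, with a stretch of 718 coding bases that the other lacks. In mice the downstream start is the one known for the longer forms of liver. A further 11.1% ± 0.280 fell to a 1956 nt transcript that M21 does not name.

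The 250 bases before the RefSeq start nearest to each are shown because the results turn on both starts (RefSeq, GRCm38.p6, minus strand, 5′ to 3′): the upstream window at chr10:77166531-77166780 and the downstream window at chr10:77113706-77113955. RefSeq places the upstream start at 77166530, inside the GENCODE transcript, so the last 18 bases of that window belong to Col18a1-202. The downstream start is the same in both annotations. Capitals mark the motifs searched on both strands, which were the TATA box TATAAA, the CCAAT box and the GC box GGGCGG, and no 2 of them overlap here.
Col18a1 upstream start: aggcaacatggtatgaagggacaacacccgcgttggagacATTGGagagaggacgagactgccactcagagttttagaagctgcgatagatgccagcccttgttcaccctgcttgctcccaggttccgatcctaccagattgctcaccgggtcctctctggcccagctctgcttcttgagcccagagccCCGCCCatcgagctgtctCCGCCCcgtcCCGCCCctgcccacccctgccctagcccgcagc
Col18a1 downstream start: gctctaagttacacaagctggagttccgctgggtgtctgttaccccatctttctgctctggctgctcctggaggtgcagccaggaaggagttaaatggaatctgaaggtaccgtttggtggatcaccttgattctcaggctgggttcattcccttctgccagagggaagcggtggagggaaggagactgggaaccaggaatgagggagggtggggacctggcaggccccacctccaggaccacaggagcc

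The upstream window held 1 CCAAT and 3 GGGCGG matches, all on the reverse strand and so printed as ATTGG and CCGCCC, and these letters are not in the downstream window. Windows were found for 35 of the 44 members, 38 in all. GGGCGG was in 22 of these windows (57.9%), against 32.7% of all 32851 promoter windows, which include noncoding genes. CCAAT was in 34.2% of the members' windows and 33.8% of all, and TATAAA in 13.2% and 12.4%.

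Between the libraries the abundant collagens differed little, and so did nearly all genes at 5 TPM or more in either library. Of the 11 members at 5 TPM or more in either library, 0 differed by more than 2-fold on the log2(TPM + 1) scale, where 0.672% of 8781 genes did. The median log2 ratio of replicate 2 over replicate 1 was -0.08 in these members and -0.04 in all genes at that level. At 1 TPM or more in either library, 1 of 22 members passed 2-fold, where 1.75% of 13066 genes did, and 0.911% were higher in replicate 2. That member was Col2a1, and with no limit on level it was again the 1 of 44, where 0.978% of 23427 genes passed. Lifting the limit could add no gene, since with 1 TPM added a gene under 1 TPM in both libraries cannot pass 2-fold.

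Col2a1 (ENSMUSG00000022483; chr15:97975602-98004695, minus), the main collagen of cartilage, had 4.77 TPM from 955 counts in replicate 2 and 0.445 TPM from 55 counts in replicate 1. The log2 ratio was 2.00, and the count ratio scaled by library totals was 13.4 (95% counting interval 10.2 to 17.9). Of the 5 other chains of types IX and XI, 3 had a counting interval above 1. The share of all genes with such an interval was not computed. Counts differed beyond sampling noise over all genes (chi-square per gene 20.0 over 15492 genes), and Col1a1, at a ratio of 1.03, also had an interval above 1 (1.005 to 1.052). Col9a1 had 82 counts in replicate 2 and 5 in replicate 1, a count ratio of 12.6 (5.20 to 39.9). Col9a3 had 290 counts in replicate 2 and 62.9 in replicate 1, a ratio of 3.55 (2.69 to 4.73), and Col11a2 had 131 and 38, a ratio of 2.65 (1.84 to 3.92). For Col9a2 and Col11a1 the intervals, 0.956 to 1.46 and 0.952 to 1.23, included 1, and Col11a1 was lower in replicate 2 by TPM. Col9a3 overlaps the gene Tcfl5, and its reads in the overlap are uncertain.

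The cartilage markers were read beside these genes. All 5 were higher in replicate 2 to any extent, as were 41.7% of 23427 genes with counts. Of the 5, 0 reached 5 TPM in either library, so the 2-fold count at that limit held none of them. Their sum was 2.16 TPM in replicate 2 and 0.673 TPM in replicate 1, none was at 0, and 0 of 5 reached 1 TPM in both libraries. Cnmd, a cartilage glycoprotein, had 52 counts in replicate 2 and 3 in replicate 1, Hapln1 had 116 and 58, Acan had 49 and 6, Matn1 had 17 and 4, and Matn3 had 19 and 8. The counting interval of the ratio included 1 for Matn3 (0.765 to 4.83) and lay above 1 for the other 4. As above, the share of all genes with an interval above 1 was not computed. All 5 skeletal muscle markers were also higher in replicate 2, summing to 256 TPM in replicate 2 and 168 TPM in replicate 1. The part of either tissue in the Col2a1 and type IX values was not tested.

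The transcript forms of Col2a1 differed too. The exon printed here is coding exon 2 of Col2a1-201 (GRCm38 chr15:98000403-98000606, minus strand, GENCODE M21), which Col2a1-202 lacks, and the capitals mark its 10 cysteine codons in frame. Forms with this exon are known from cartilage precursors and forms without it from mature chondrocytes.
Col2a1 exon 2: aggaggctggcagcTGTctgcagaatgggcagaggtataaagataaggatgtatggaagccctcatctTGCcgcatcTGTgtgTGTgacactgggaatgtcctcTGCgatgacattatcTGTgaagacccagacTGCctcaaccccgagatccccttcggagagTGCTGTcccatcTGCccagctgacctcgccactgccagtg

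Col2a1-202, without this exon, had 943 of the gene's 955 counts in replicate 2 and 34.1 of 55 in replicate 1. Col2a1-201, with it, had 12.2 counts in replicate 2 and 19.4 in replicate 1. Counts of the form with the exon were therefore low in both libraries, and the gap between libraries lay in the form without it. Few reads can tell these forms apart, since they share 4257 coding bases.

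The largest difference in the other direction among abundant members was that of Col18a1, with a log2 ratio of -0.39 and a count ratio of 0.793 (0.773 to 0.813). Col4a1 had a count ratio of 0.876 (0.838 to 0.917) and Col4a2 0.902 (0.845 to 0.964), both lower in replicate 2. Col25a1, at lower depth, had 170 counts in replicate 2 and 165 in replicate 1, a ratio of 0.793 (0.637 to 0.989). Col5a1, a fibrillar gene, was lower in replicate 2 too, at 0.920 (0.875 to 0.967). The count ratios of the fibrillar genes Col3a1, Col1a1 and Col1a2 lay between 1.01 and 1.03.

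Marker lists were read beside Col18a1 and type IV. Of all 13066 genes at 1 TPM or more in either library, 61.3% were lower in replicate 2 to any extent, with a median log2 ratio of -0.05. The 6 hepatocyte markers, led by Trf, Afp, Alb and Apoa1, were all lower, with a median log2 ratio of -0.33. So were the 8 endothelial markers, led by Eng, Lyve1, Stab2 and Kdr, which summed to 87.1 TPM in replicate 2 and 98.9 TPM in replicate 1 and had a median of -0.14, and the 4 smooth muscle markers, with 26.5 and 31.7 TPM. The 5 bile duct markers were lower as well, with 13.4 and 26.7 TPM, and so were 4 of 5 pancreas markers, with 14.8 and 57.1 TPM and Pnlip at 0 in both. At 5 TPM or more in either library, 1 of 1 bile duct marker and 2 of 3 pancreas markers differed by more than 2-fold. In the other marker lists 0 did, and of all 8781 genes at that level 0.672% did. Of the 10 stellate and mesenchymal markers, which hold no collagen, 7 were lower, with a median of -0.15. Their sum of 123 TPM in replicate 2 against 121 TPM in replicate 1 came mostly from Vim, at 84.7 TPM in replicate 2 and 78.3 TPM in replicate 1. The 4 mesothelial markers summed to 10.8 and 10.3 TPM, and the 4 megakaryocyte markers to 440.4 and 424 TPM. The part of any of these in the collagen values was not tested.

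**Figure D5:**
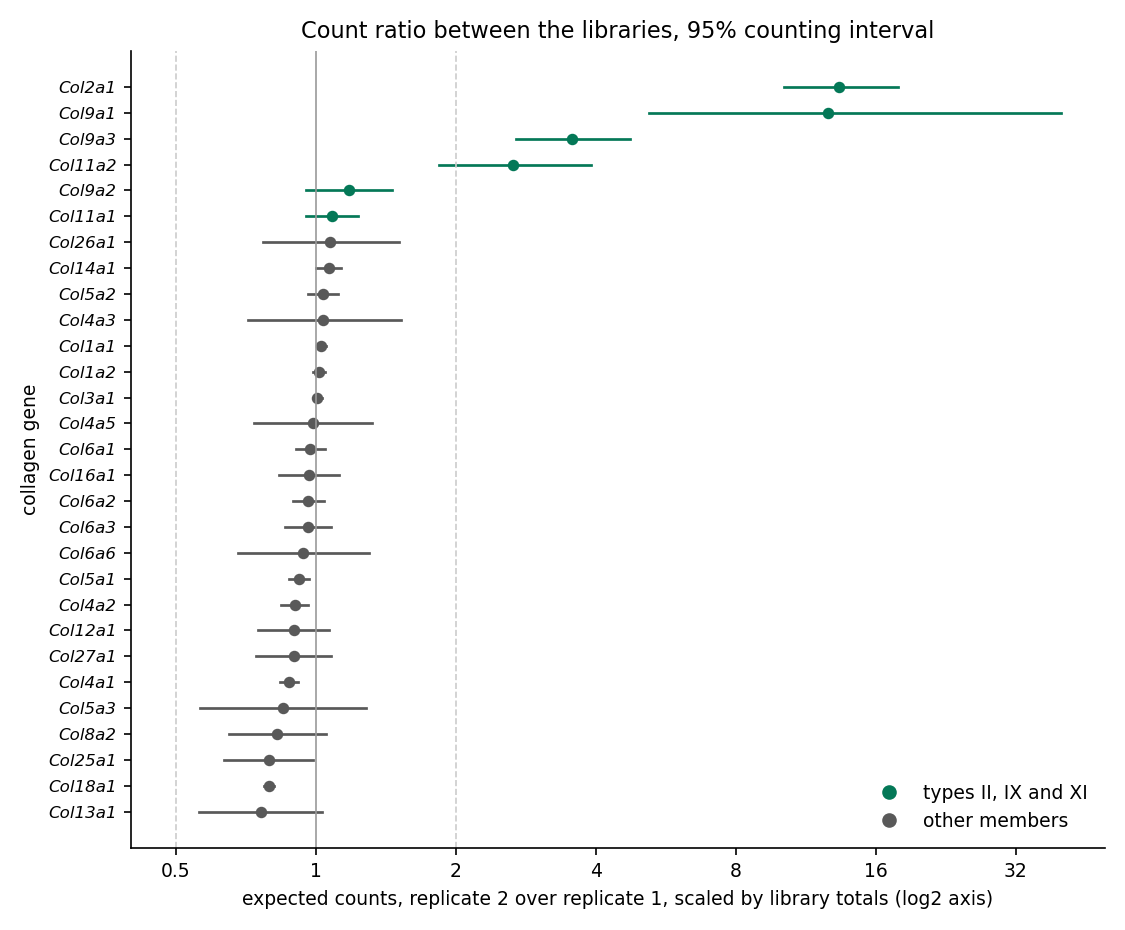
Ratio of expected counts, replicate 2 over replicate 1, scaled by library totals (log2 axis), for the 29 members with 50 or more counts in either library; lines are exact 95% counting intervals. Col2a1, Col9a1, Col9a3 and Col11a2 (green, with the other type II, IX and XI chains) lie above 2, and Col18a1 lies at 0.793.

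The genes that make, cut, bind and degrade collagen give the setting of these levels, each list chosen by function. Enzymes and chaperones that fold procollagen inside the cell summed to 1399 TPM in replicate 2 and 1564 TPM in replicate 1, with 17 of 20 genes detected. The highest also act on other proteins: P4hb, a subunit of prolyl 4-hydroxylase and a disulfide isomerase, had 594 TPM in replicate 2 and 752 TPM in replicate 1, Ppib had 328 and 333 TPM, and Pdia3 had 259 and 245 TPM. Serpinh1, the chaperone dedicated to collagen, had 69.4 TPM in replicate 2 and 70.9 TPM in replicate 1, and differed between libraries as little as the type I and type III genes did. Colgalt2, a glycosyltransferase of collagen hydroxylysine, was lowest at 0.330 and 0.280 TPM.

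Genes that trim and cross-link secreted collagen were much lower, summing to 43.8 TPM in replicate 2 and 45.9 TPM in replicate 1, and 8 of 13 were detected. Pcolce and Pcolce2, enhancers of the C-proteinase, had 15.4 and 5.45 TPM in replicate 2 against 16.1 and 5.17 TPM in replicate 1. The C-proteinase gene Bmp1 had 9.23 and 9.82 TPM, and the cross-linking gene Loxl2 had 4.57 and 4.71 TPM. Tll2 was lowest, with 1 count in each library.

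Of 10 collagen receptors 6 were detected. Itgb1, the integrin subunit shared by many receptors, had 67.7 TPM in replicate 2 and 68.4 TPM in replicate 1. Its collagen-binding partner Itga1 had 3.57 and 3.92 TPM, the platelet receptor Gp6 had 3.53 and 3.56 TPM, and Ddr1 had 2.44 and 3.21 TPM, while Itga11 was lowest at 0.103 and 0.145 TPM. Breakdown genes and their inhibitors summed to 111 TPM in replicate 2 and 128 TPM in replicate 1, with 9 of 11 detected. They were led by Pepd, which splits the proline dipeptides left from collagen, at 55.1 and 59.7 TPM, Mmp14 at 19.9 and 22.4 TPM, Mmp8 at 10.1 and 13.9 TPM and Mmp9 at 5.49 and 9.44 TPM, and Timp4 was lowest.

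Basement membrane partners of type IV summed to 210.0 TPM in replicate 2 and 223 TPM in replicate 1, with 10 of 16 detected. Sparc, which binds collagen and is not confined to basement membranes, made up most of it with 146 and 148 TPM, ahead of Nid1 with 20.7 and 24.8 TPM, Nid2 with 9.62 and 10.3 TPM and Lamb2 with 8.12 and 8.56 TPM. Lama3 was lowest. Proteins that bind fibrils summed to 264 TPM in replicate 2 and 294 TPM in replicate 1, with 9 of 10 detected, led by Fn1 at 118 and 147 TPM, Dcn at 50.9 and 51.0 TPM, Lum at 28.5 and 25.6 TPM and Thbs1 at 24.1 and 27.4 TPM, and Tnxb was lowest. In none of these 6 lists did a gene at 5 TPM or more in either library differ by more than 2-fold. Of all 8781 genes at that level only 0.672% did, so this does not set the lists apart. The median log2 ratios over all genes of a list ran from -0.12 to -0.02, beside -0.03 for all 23427 genes with counts.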

How the data were processed

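Per the companion descriptions of the files, the deposited tables were made on mm10 with GENCODE annotation M4; which aligner and quantifier made them is not given in the sources used here. As deposited, an expected count is an unscaled estimate per gene or transcript. TPM, plain or as posterior mean, was deposited with spike-ins in its total and is corrected for length by the authors. The 97 spike-in and 26248 numeric entries were left out and TPM was rescaled to its full total. Symbols, coordinates and exons came from GENCODE M21, promoters from RefSeq (GRCm38.p6). Members and lists were chosen with earlier results of these data known. Members at 1 TPM in both libraries were named, with the 4 highest and the lowest gene of each list and the 5 largest library differences at 50 counts or more; not every list gene so chosen is printed. Others were chosen after their values were seen. The replicates are biological per the labels, and with 1 library a side no p-value is given; their counts differed beyond sampling noise (chi-square per gene 20.0 over 15492 genes). Ratios are log2 of TPM + 1, with exact Clopper-Pearson counting intervals of the count ratio. Scaling alternatives, on rounded expected counts, used edgeR 4.0.16 (TMM) and DESeq2 1.42.0 (size factors). The ratio rule was tested on simulated data. Scripts ran in R 4.3.3 and in Python 3.11.15 with pandas 2.3.3, SciPy 1.17.1, NumPy 2.4.6 and matplotlib 3.10.9.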

Additional observations from a re-analysis of the deposited data

How the results depend on the processing

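Of 98 alternative values that used both libraries, 56 stayed within the SD between libraries or, for counts of genes, within 1.5 times, or stayed on the same side of 2-fold. Of the rest, 33 moved beyond these limits and 7 passed 2-fold where the reported value did not. The last 2 turned to the other side of 1, both for Col3a1 over Col1a1. The 42 values from 1 library alone are no check of stability, since a mean of 2 libraries lies within their SD of each. The 19 detected members became 36 at a limit of 0.1 TPM, 11 at 5 TPM and 37 at 10 expected counts in both, 20 in replicate 2 alone and 21 in replicate 1 alone. Without the highest member of each class the fibrillar share was 80.0%; it was 63.3% in replicate 2 alone and 60.0% in replicate 1 alone. Type IV took 25.5% when the multiplexins and Col7a1 were counted with it. Col1a1 over Col1a2 was 1.85 by expected counts, 1.65 by posterior mean TPM, 1.67 without short transcripts, and 1.64 to 1.65 from single libraries. Col4a1 over Col4a2 was 2.16 by expected counts, 2.09 by posterior mean TPM, and 2.10 to 2.14 from single libraries. Col3a1 over Col1a1, 1.41 by TPM, turned to 0.974 by expected counts and 0.989 without short transcripts; by counts no length is corrected for. Col6a3 over Col6a2 was 0.194, Col4a3 over Col4a4 4.15 and Col11a1 over Col11a2 6.15 without short transcripts; by expected counts the last 2 were 2.96 and 7.58. Col9a2 over Col9a3, 1.26 on the mean, was 0.788 in replicate 2 alone and 1.74 in replicate 1 alone, on opposite sides of 1. Members with few counts, such as Col6a5 with 1 in replicate 2 and 5 in replicate 1, are limited by depth. Members more than 2-fold apart numbered 1 at 1 TPM in either and 1 with no filter, which could add no member on the log2(TPM + 1) scale. The number was also 1 by posterior mean TPM, each time Col2a1. On that scale Col9a1 and Col9a3 passed 2-fold with a pseudocount of 0.1 and under TMM or median-of-ratios scaling, Col9a3 also without short transcripts. The procollagen enzyme list summed to 1399 TPM in replicate 2 alone and 1564 TPM in replicate 1 alone. Leaving out the adult globins put the family at 638 TPM. The alternatives without short transcripts or cartilage collagens were chosen after seeing the data. No paired analysis was possible because there is 1 group.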
